A study of Canis lupus familiaris with 34 samples.

Results

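WIF1, SOST, SFRP4 and SHISA2 are 4 of the 23988 genes measured by RNA sequencing in canine osteosarcoma, a bone cancer whose cells lay down bone matrix. They were chosen by name from earlier results on these data. WIF1, SOST and SFRP4 were among the most variable named genes of the primary tumours, and WIF1 and SHISA2 had stood far from the tumours in the cell lines, so those values are given here without a test. All 4 passed the filter on low values (at least 1 FPKM in at least 2 libraries), as did 15165 genes in all.

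The 34 libraries comprise 30 of primary bone tumours, 1 of a metastasis (DOS.6M), 2 of cell lines labelled as bone tumour (OSCA.8 and OSCA.78) and 1 of an osteoblast culture (CNOB). Every sample is labelled Golden Retriever, although the series text also names Rottweilers, and no age, treatment, genotype or site of the tumour is given in the sources used here. Each line is a single culture. Neither the metastasis nor the osteoblast culture has a replicate. DOS.46.2 carries the number of DOS.46 in its title, and the mean of both on the log2 scale was counted once, which leaves 29 tumours.

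WNT proteins are secreted signals that bind Frizzled receptors with the co-receptors LRP5 and LRP6 and stabilise beta-catenin, and in bone they favour the formation of osteoblasts. WIF1 (WNT inhibitory factor) and SFRP4 (secreted frizzled-related protein) bind WNT proteins outside the cell. SOST encodes sclerostin, which osteocytes, the cells embedded in mineralised bone, secrete and which blocks the LRP co-receptors. SHISA2 is not secreted: it belongs to a family of proteins described as holding Frizzled and FGF receptors back in the endoplasmic reticulum.

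FPKM, a level per transcript length and library size, summed to 479053 to 1418310 per library, and 15328 to 17711 genes had a value above 0. Sequencing depth in reads is unknown. The summed level of 6 genes of osteoblasts and bone matrix lay between 6859 and 42616 FPKM in tumours and at 16093 in the osteoblast culture, where bone sialoprotein IBSP was 6.95 FPKM against a tumour median of 917. Of those 6 genes, IBSP and SPP1 lay below every tumour in the culture, and SP7, OMD, COL1A2 and SPARC lay inside the tumour range. The smooth muscle gene TAGLN stood at 47085 FPKM in that culture, against at most 1360 in the tumours. Of the 4 genes of smooth muscle and pericytes measured, which include TAGLN, 2 lay below 1 FPKM there.

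WIF1 was the most abundant of the 4 genes in the tumours, and it varied widely. Its lowest level was 13.7 FPKM (DOS.101), its median 440 and its highest 8116 (DOS.70), where it was the gene with rank 7 of all genes. The mean was 870 ± 1547 FPKM (SD, n = 29), and 7 tumours lay at 1000 FPKM or more. At the low end, DOS.101, DOS.75 and DOS.11 stood together at 13.7, 14.3 and 14.99 FPKM, and the next tumour was at 60.7. These 3 tumours were also among the lowest for SOST, at 0.180, 0.0503 and 0.0373 FPKM.

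SOST spanned the widest fold range. It ran from 0.0373 FPKM (DOS.11) over a median of 6.84 to 429 (DOS.81), with DOS.111 at 306 and the third tumour at 78.4. The mean was 37.1 ± 94.7 FPKM (SD, n = 29), so a pair of tumours carried most of the total. Between 1.85 and 5.26 FPKM no tumour was found: 10 lay below that gap and 19 above it. The lowest values were set against one another. After division by the relative FPKM of 1 fragment in each library, the levels in DOS.11 and DOS.75 were 2.99 and 3.01 times the level in the osteoblast culture, and those of DOS.90, DOS.116 and DOS.101 were 10.99, 12.04 and 13.99 times it. These levels thus lie near whole multiples of the level in the osteoblast culture, and the number of fragments behind them is unknown. For SHISA2 the same division gave 12.39, 15.37, 20.37 and 20.94 times the osteoblast culture in DOS.113, DOS.105, DOS.32 and DOS.100. The relative FPKM of 1 fragment is itself an estimate, so whether the larger multiples of either gene are whole cannot be told.

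SFRP4 ranged from 1.22 FPKM (DOS.105) over a median of 26.7 to 699 (DOS.76), with a mean of 117 ± 189 FPKM (SD, n = 29). High values were spread over more tumours than for SOST: DOS.28 reached 618 FPKM and DOS.57 518, and 8 tumours lay at 100 FPKM or more. DOS.70, the tumour richest in WIF1, had the second lowest SFRP4 at 5.76 FPKM.

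SHISA2 was low in tumours, from 0.398 FPKM (DOS.105) over a median of 2.26 to 19.5 (DOS.110), with a mean of 4.22 ± 4.90 FPKM (SD, n = 29). DOS.85, DOS.11 and DOS.115 followed at 16.1, 13.2 and 12.3 FPKM, and the next tumour stood at 7.49. The SD on the log2(FPKM + 1) scale was 1.06 for SHISA2 against 2.34 for WIF1, 2.36 for SOST and 2.205 for SFRP4. Among 19 extracellular antagonists in the table, WIF1 had the highest FPKM in 15 of the 29 tumours, IGFBP4, a growth factor binding protein also described as a WNT antagonist, in 12, and SFRP4 and FRZB in 1 each. Median levels per length of the 4 genes were ordered as WIF1, SFRP4, SOST and SHISA2, with overlapping ranges between all neighbours in that order. The repeated library of DOS.46 gave values close to the first: 552 against 565 FPKM for WIF1, 11.96 against 12.3 for SOST, 25.9 against 27.5 for SFRP4 and 2.28 against 2.36 for SHISA2.

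**Figure D1:**
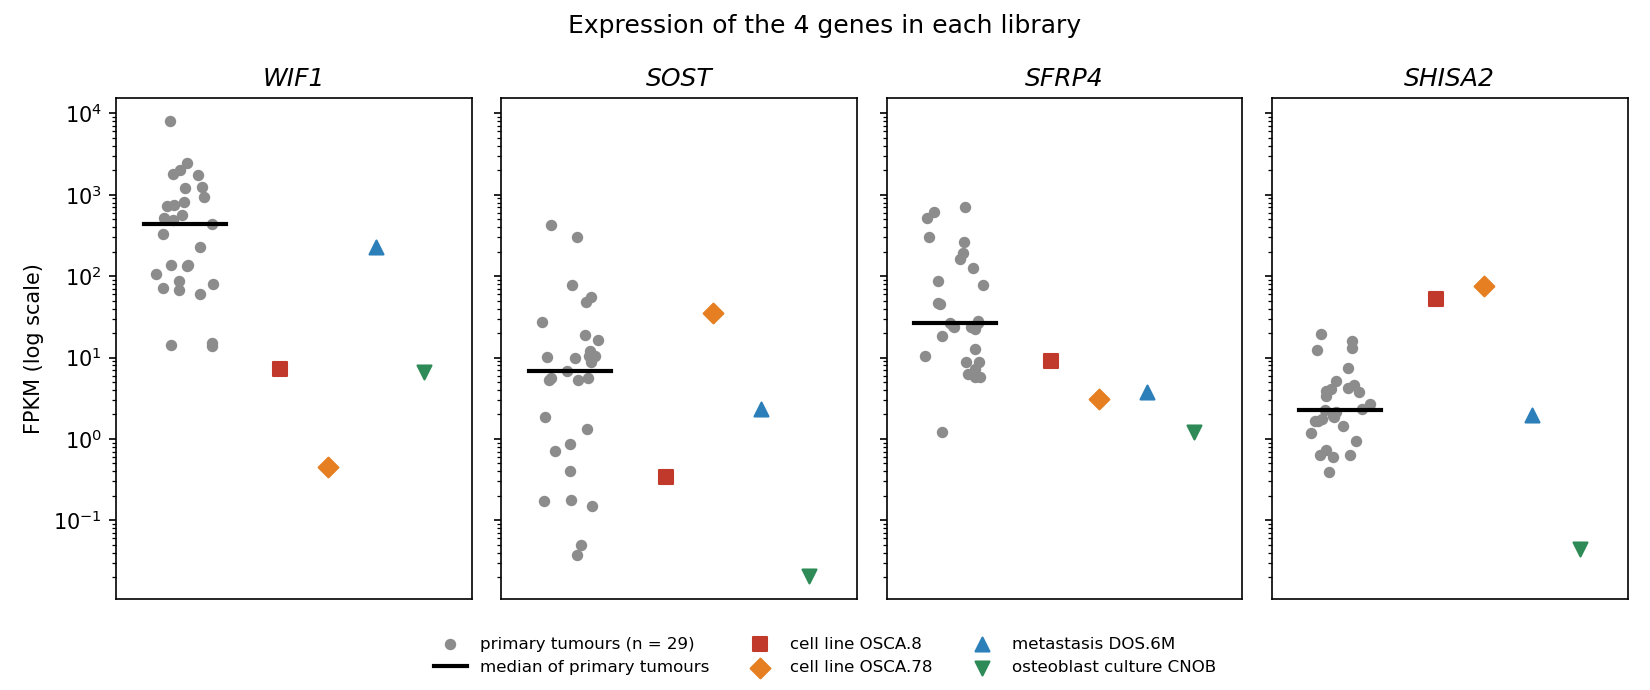
Level of each gene in FPKM on a log scale, with grey points for the 29 primary tumours, a bar at their median and coloured symbols for the single libraries. WIF1 in both lines and the osteoblast culture lies below its lowest tumour (13.7 FPKM), and SHISA2 in both lines lies above its highest (19.5 FPKM).

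In the cell lines WIF1 was lower and SHISA2 higher than in every primary tumour. In OSCA.8 WIF1 was 7.29 FPKM and in OSCA.78 it was 0.4505, and the tumour median was 60.4 and 976 times these levels. SHISA2 reached 51.9 FPKM in the first and 74.9 in the second line, which is 22.997 and 33.2 times the tumour median and 2.66 and 3.84 times the highest tumour. On the log2(FPKM + 1) scale the lines differed from the tumour mean by -6.44 for WIF1 and 4.03 for SHISA2. Over all genes, 7.30% had both lines below every tumour and 4.04% had both above. These contrasts chose the 2 genes and are given as a description.

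SOST and SFRP4, which were not chosen on the lines, did not pass limma over all genes. SOST split the lines: OSCA.78 had 34.8 FPKM, above 24 of 29 tumours, and OSCA.8 had 0.336, above 5 of 29. The difference between lines and tumours was -0.26 ± 1.71 (log2, SE, limma adjusted p = 0.932), and it was 2.12 with OSCA.78 as the only line (adjusted p = 0.585) and -2.63 with OSCA.8 (adjusted p = 0.705). SFRP4 was 9.10 FPKM in OSCA.8 and 3.12 in the other line, below 22 and 28 of the 29 tumours, a difference of -2.60 ± 1.54 (log2, SE, limma adjusted p = 0.258). With 2 lines these standard errors leave a change of several fold unresolved. The labels do not state that each library comes from a separate dog, and p-values measure the spread between libraries.

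Markers of other cells moved with the same contrast. All 6 endothelial and 9 macrophage genes measured fell in the lines by limma (7.92% of all genes were called lower). The summed endothelial level was 0.383 FPKM (OSCA.8) and 0.464 FPKM (OSCA.78) against 82.7 to 2334 in tumours, and all 6 genes lay below 1 FPKM in both lines. The summed macrophage level was 1.52 and 2.06 FPKM against 82.4 to 1509. Bone matrix genes moved too, with 4 of 6 called lower and IBSP at 1.96 and 0.717 FPKM. The part of these cells in the level of WIF1 was not tested. In bulk samples, fewer cells of a type and less RNA per cell cannot be told apart.

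Of 14 other extracellular WNT antagonists measured, 4 rose in the lines and 0 fell (28.6%, against 8.49% of all genes called higher). The median difference of the 14 was 1.28 on the log2 scale, beside -0.05 over all genes. DKK3, a dickkopf family protein, rose by 3.19 ± 0.85 (log2, SE, limma adjusted p = 0.00922), with 247 and 344 FPKM in the lines (OSCA.8 first, here and below) against 4.67 to 126 in tumours. SFRP1, a relative of SFRP4, rose by 2.91 (limma adjusted p = 0.0251), at 19.3 and 138 FPKM against a tumour median of 4.63 and a highest tumour of 42.4. SOSTDC1, the closest relative of SOST, rose by 2.38 (limma adjusted p = 0.0333), at 2.85 FPKM in OSCA.8, within the tumour range, and 31.8 in OSCA.78, above its highest value of 16.6. DRAXIN, the fourth, was named after its values were seen. It stood at 1.37 FPKM in OSCA.8, within the tumour range, and 9.86 in OSCA.78, against a tumour median of 0.176 and a highest tumour of 4.24. With OSCA.8 as the only line none of these 4 calls held: the adjusted p was 0.247 for DKK3 (at 2.96), 0.669 for SFRP1 (at 1.52) and 0.799 for SOSTDC1 (at 0.84). With OSCA.78 alone DKK3 also missed the threshold (adjusted p = 0.0537, at 3.43). At a pseudocount of 0.1 FPKM the call of SOSTDC1 ended (adjusted p = 0.0653, at 3.42). At that pseudocount SFRP5, listed at 0 in both lines against a tumour median of 1.42 FPKM, was called lower, as a difference of -3.72 (limma adjusted p = 0.0304), against -1.36 (0.241) at 1 FPKM.

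**Figure D2:**
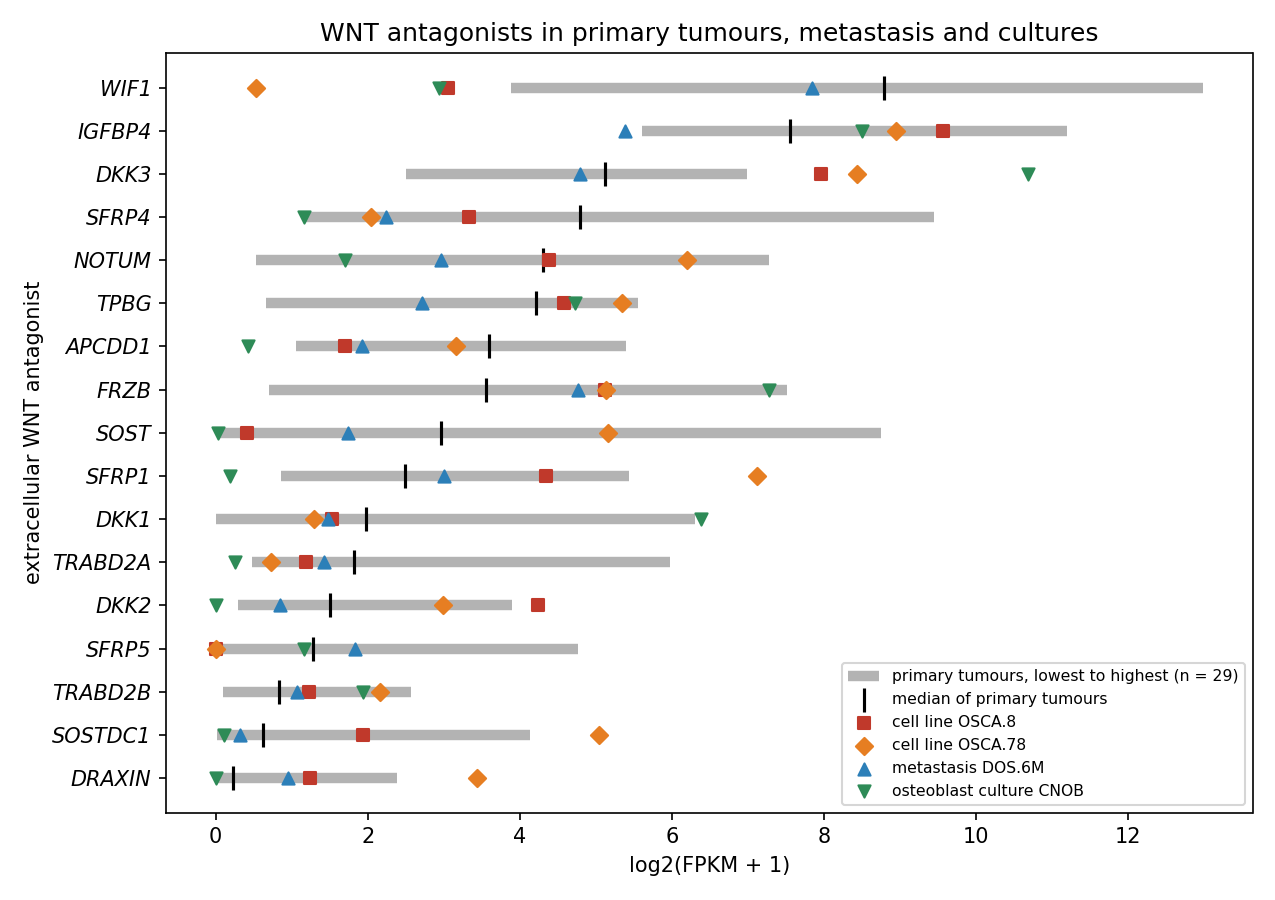
Levels of 17 extracellular WNT antagonists as log2(FPKM + 1), with the tumour range as a grey bar, the tumour median as a tick and single libraries as symbols. WIF1 has the highest tumour median (440 FPKM) and lies below its tumour range in all 3 cultures, whereas DKK3 lies above its range (126 FPKM at most) in all 3.

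Of 81 other WNT pathway genes measured (7 lists), 14 rose (17.3%, against 8.49% of all genes called higher). Only 1 fell (1.23%, against 7.92% called lower), in all 18.5% against 16.4% of all genes. In the lists described below, 7.69% of ligands and 18.2% of target genes were called in either direction. The share was 16.7% each for receptors, for agonists and secretion genes, and for SHISA2 relatives with FGF receptors. Of 15 cytoplasmic and nuclear components, 3 were called. These shares stand beside the 16.4% of all genes, and no list was tested against it. With OSCA.8 as the only line the pathway calls ended except for LGR5 and WNT7A, and most calls over all genes ended too. Beta-catenin (CTNNB1), APC, LRP5 and SFRP2 were listed and not analysed here.

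Among ligands 1 of 13 was called: WNT7A rose by 0.79 (limma adjusted p = 0.00838) from a tumour median of 0.0504 FPKM to 1.87 (OSCA.8) and 0.305 (OSCA.78, within the tumour range), and with OSCA.78 alone it did not pass (0.603, at 0.22). Of 18 receptors and co-receptors, 2 rose and 1 fell. The Frizzled receptor FZD4 fell by 2.39 on the log2 scale (limma adjusted p = 0.00769), from a tumour median of 3.97 FPKM to 0.00839 and 0, and with either line alone it missed the threshold at the same size (0.179 with OSCA.8, 0.0651 with OSCA.78). Its size depends on the pseudocount: at 0.1 FPKM the difference was -5.33 (limma adjusted p = 5.1e-06), and that of WNT7A was 2.23 (0.0226). FZD2 rose by 1.96 (limma adjusted p = 0.0397) and the receptor kinase ROR1 by 1.76 (limma adjusted p = 0.0262). FZD2 missed the threshold with OSCA.8 alone (0.717, at 0.98), after scaling to the upper quartile (0.0564) and without the filter (0.0529), and ROR1 with either line alone (0.466 at 1.40 with OSCA.8, 0.0643 at 2.12 with OSCA.78).

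Of 6 agonists and secretion genes, WLS, the carrier that brings WNT proteins to the cell surface, rose by 1.66 (limma adjusted p = 0.00917), at 275 and 423 FPKM against a highest tumour of 259. Of 15 cytoplasmic and nuclear components, 3 rose: the repressor-type TCF factor TCF7L1 by 1.33, the scaffold DVL2 by 1.23 and the co-repressor TLE4 by 1.20 (limma adjusted p = 0.0310, 0.00331 and 0.0260). None of these 4 passed with OSCA.8 alone (adjusted p = 0.327 for WLS, 0.728 for TCF7L1 at 0.60, 0.260 for DVL2 and 0.296 for TLE4), nor TLE4 with OSCA.78 alone (0.133).

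Of 11 WNT target genes 2 rose. LGR5, a receptor for R-spondins, rose by 1.90 ± 0.32 (log2, SE, limma adjusted p = 1.1e-04), at 4.69 and 2.34 FPKM against a highest tumour of 2.18, and it held with either line alone. At a pseudocount of 0.1 FPKM its difference was 4.17 (limma adjusted p = 0.00204). ZNRF3, which removes Frizzled receptors from the cell surface, rose by 1.40 (limma adjusted p = 0.00392, and 0.121 with OSCA.8 alone). The median of the 11 was -0.40. Among 6 relatives of SHISA2 and FGF receptors, SHISA3 rose by 1.31 (limma adjusted p = 0.0247), at 1.21 and 3.79 FPKM, far below SHISA2 in the same lines. Its call ended with OSCA.8 alone (0.635, at 0.75) and at a pseudocount of 0.1 FPKM (0.0505, at 3.01).

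The osteoblast culture held little of any of the 4 genes. WIF1 was 6.64 FPKM, SOST 0.0209 and SHISA2 0.0444, each below all 29 tumours, and SFRP4 was 1.23 FPKM, above the lowest tumour only. The tumour median was 66.2 times the culture's WIF1, 21.6 times its SFRP4 and 50.8 times its SHISA2. Low WIF1 was thus shared by all 3 cultures, while high SHISA2 was seen in the 2 osteosarcoma lines and not in the osteoblasts. Of the other antagonists, DKK3 (1640 FPKM) and DKK1 (82.4) lay above every tumour, SFRP1 (0.142), DKK2 (0), APCDD1 (0.350) and TRABD2A (0.194) below every tumour, and FRZB, another frizzled-related protein, inside the range at 154. The culture is 1 library, so these are values without a test. They were not rescaled, although the upper quartile of this library was 33.8 FPKM, against a median of 21.2 over all libraries. DKK1 lay only slightly above its highest tumour (78.3 FPKM), so its place above every tumour depends on the scale of the library.

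The metastasis lay inside the tumour range for all 4 genes. WIF1 was 229 FPKM (above 13 of 29 tumours), SOST 2.33 (above 10), SFRP4 3.72 (above 1) and SHISA2 1.99 (above 13). DOS.6, the primary tumour with the same title number, had 728, 18.8, 8.71 and 4.11 FPKM in that order, so the metastasis was lower in each, by between 0.77 and 2.57 on the log2 scale. The labels do not say that the 2 libraries come from 1 dog. Over genes, the deviations of the metastasis from the tumour mean correlated at 0.510 with those of DOS.6 and at most at 0.195 with those of the other 28 tumours. The 6 bone matrix genes summed to 4374 FPKM in the metastasis, below every primary tumour. Of these, COL1A2 and SPARC lay below their tumour ranges there, and IBSP, SP7, OMD and SPP1 inside them. The 4 T cell genes summed to 24.1 FPKM, against a tumour median of 5.03 and a highest tumour of 30.6. The part of these differences in the 4 genes was not tested.

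OSCA.8 and OSCA.78 also share title numbers with tumours. DOS.8 had 440 FPKM of WIF1 against 7.29 in OSCA.8, and DOS.78 had 80.3 against 0.4505 in OSCA.78. For SHISA2 the values were 1.66 against 51.9 and 3.87 against 74.9 FPKM. SOST was 5.56 and 5.65 FPKM in the 2 tumours, and the lines departed from that in opposite directions.

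Among the primary tumours the 4 genes did not vary as 1 group. SFRP4 and SHISA2 went together, with r = 0.513 and rho = 0.532 over 29 tumours (unadjusted permutation p = 0.00463 and 0.00346, two-sided, 1 of 6 pairs below 0.05), and r = 0.580 without DOS.76 and DOS.28, the tumours farthest from the SFRP4 median. Without DOS.110 and DOS.85, the tumours highest in SHISA2, r was 0.400. The 7 tumours highest in SFRP4 and the 7 highest in SHISA2 had 5 in common, DOS.110, DOS.115, DOS.28, DOS.56 and DOS.85. In a fit over all genes the pair did not pass. The slope of SHISA2 on SFRP4 was 0.25 ± 0.08 (SE, limma adjusted p = 0.147) and that of SFRP4 on SHISA2 1.07 ± 0.33 (SE, limma adjusted p = 0.113). Across the same tumours the summed FPKM of the library had r = 0.598 with SFRP4 and 0.304 with SHISA2 (log2 scale, n = 29, no test), and the part of that measure in the pair was not tested.

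WIF1 and SOST had r = 0.365 and rho = 0.332 (unadjusted permutation p = 0.0510 and 0.0788), and r = 0.236 without DOS.101 and DOS.75, the tumours farthest from the WIF1 median. The tumours richest in SOST, DOS.81 and DOS.111, had 1742 and 2011 FPKM of WIF1. DOS.70 and DOS.84, the richest in WIF1, had 5.26 and 1.85 FPKM of SOST. The other pairs lay between r = -0.182 (WIF1 and SHISA2) and 0.016 (SOST and SHISA2), with permutation p from 0.345 to 0.935. WIF1 and SFRP4 had r = -0.131, and the 7 tumours highest in each had 0 in common. The same count was 2 for WIF1 and SOST and 1 for WIF1 and SHISA2. It was 2 for SOST and SFRP4 and 2 for SOST and SHISA2, and none of these counts was tested.

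**Figure D3:**
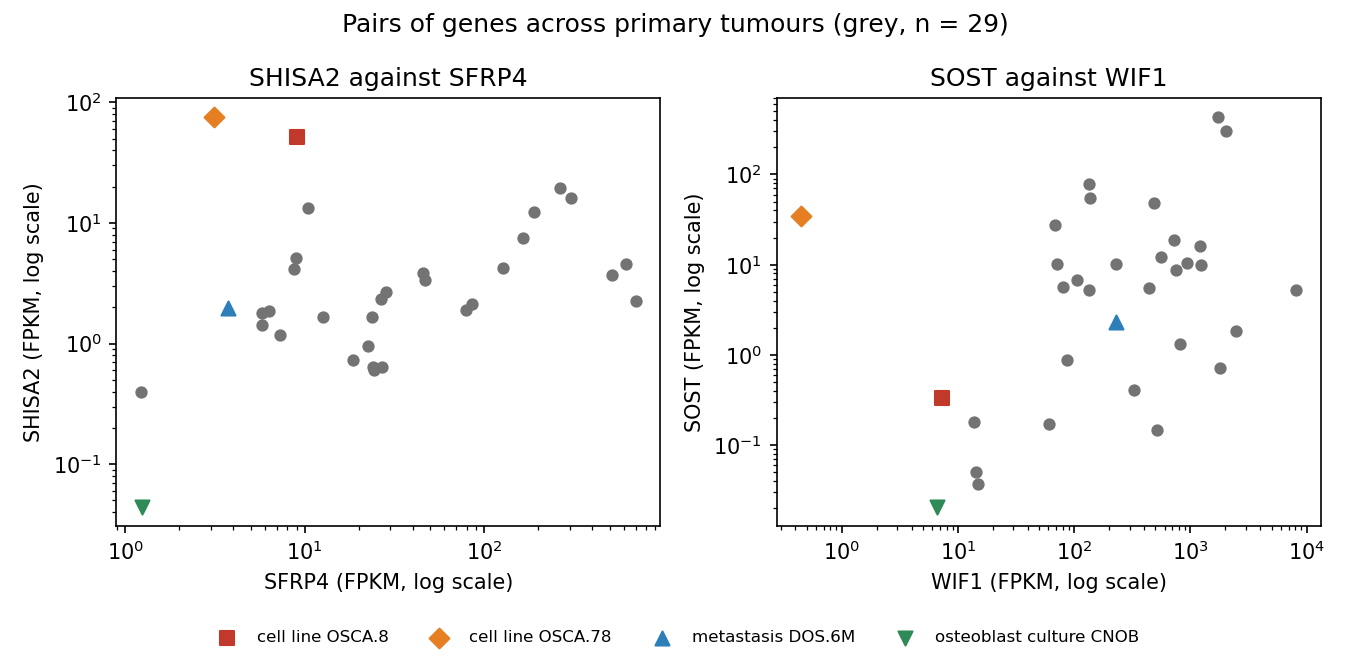
SHISA2 against SFRP4 and SOST against WIF1 in FPKM on log scales, with grey points for the 29 primary tumours. In the left panel (r = 0.513) the lines stand apart with high SHISA2 at low SFRP4, and in the right panel (r = 0.365) 3 tumours low in both genes sit at the lower left.

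Lists of marker genes were scored by their mean z-score and set against each gene, in 44 pairs with permutation p-values adjusted over the 44. SOST rose with the endothelial score (r = 0.637, rho = 0.532, permutation adjusted p = 0.00660 and 0.0493). Without DOS.81 and DOS.111, the tumours farthest from the SOST median, r was 0.504 (permutation adjusted p = 0.0795), and without the 2 tumours farthest from the median endothelial score it was 0.509. SFRP4 fell as the cell cycle score rose (r = -0.584, rho = -0.572, permutation adjusted p = 0.0205 and 0.0493), with r = -0.481 without the 2 tumours farthest from the median score and -0.499 (permutation adjusted p = 0.0795) without DOS.76 and DOS.28. SFRP4 followed the fibroblast score by rank (rho = 0.533, permutation adjusted p = 0.0493) and missed the threshold by r = 0.468 (0.0715).

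The scores of bone did not pass for any of the 4 genes. WIF1 had r = 0.453 with the osteocyte score and 0.452 with the bone matrix score, SOST 0.355 and 0.359, in each case with a permutation adjusted p of at least 0.0715. The score of WNT target genes, which include feedback inhibitors such as AXIN2 and NKD1, had r = 0.441 with WIF1 and -0.501 with SHISA2 (permutation adjusted p = 0.0715 and 0.0637), and 0.058 with SOST. That score shares genes with the pathway, and NOTUM, described next, is among them. SHISA2 had r = 0.503 with the score of smooth muscle and pericytes, 0.427 with that of cartilage and -0.453 with that of the cell cycle (permutation adjusted p = 0.0637, 0.0844 and 0.0715).

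**Figure D4:**
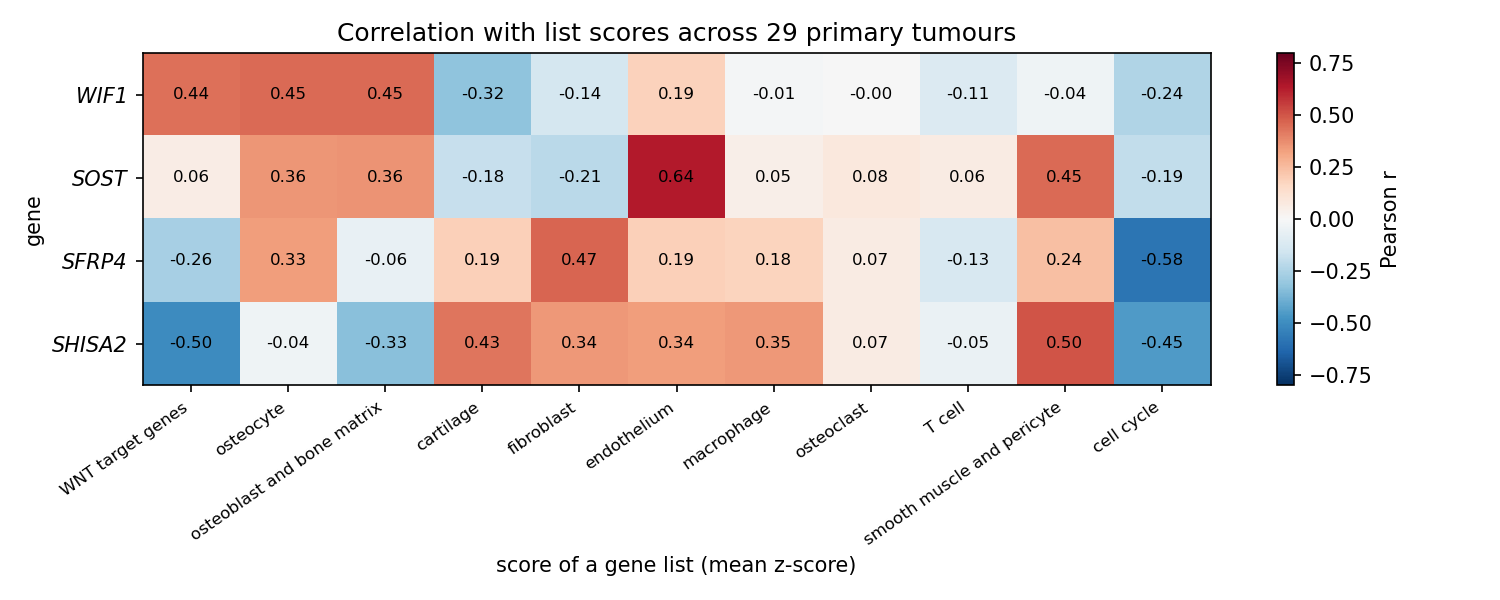
Pearson r between each gene and 11 list scores across 29 primary tumours, from blue (negative) to red (positive). SOST with endothelium (0.64) and SFRP4 with cell cycle (-0.58) are the pairs whose r passed the threshold after adjustment over 44.

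A fit of every gene on the level of each of the 4 genes in turn named the genes that follow it. A slope is the change in log2(FPKM + 1) of a gene for each log2 unit of the gene it was fitted on. For WIF1, 43 of 15164 genes were called (0.284%), 41 with a positive slope (0.270%) and 2 with a negative one (0.0132%).

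Of the 81 WNT pathway genes, 2 followed WIF1. NOTUM, a secreted enzyme that inactivates WNT proteins and is itself a WNT target, had a slope of 0.52 ± 0.09 (SE, limma adjusted p = 0.00353, r = 0.729), and FZD8, a Frizzled receptor, had 0.33 ± 0.06 (SE, limma adjusted p = 0.00362, r = 0.728). NOTUM ranged from 0.439 FPKM over a median of 18.8 to 154 in the tumours. Without DOS.101 and DOS.75, the tumours farthest from the WIF1 median, NOTUM missed the threshold (adjusted p = 0.0780, r = 0.644), FZD8 held (0.0466, r = 0.671), and 19 genes in all were called. In the lines the 2 genes parted: NOTUM stood at 19.9 and 72.2 FPKM, where WIF1 was low, and FZD8 at 0.432 and 0.765 FPKM, below its lowest tumour (0.774).

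The named genes most like WIF1 over the 29 tumours were ATP13A3 (r = 0.771), PELI2 (0.768), CDC42EP3 (0.766), PROSER2 (0.765) and MEF2C (0.757). MEF2C, a transcription factor of muscle, vessels and bone, ranged from 18.2 FPKM over a median of 46.5 to 148 and had a slope of 0.24 ± 0.04 (SE, limma adjusted p = 0.00288). It stood at 13.7 and 5.37 FPKM in the lines and 0.504 in the osteoblast culture, below every tumour as WIF1 was. The other named genes did not share this. CDC42EP3 stood at 86.7 and 89.9 FPKM in the lines and 276 in the osteoblast culture, against a tumour median of 87.4. PELI2 lay inside its tumour range in both lines, ATP13A3 in OSCA.8, and PROSER2 in OSCA.78 and the osteoblast culture. All 5 genes stayed past the threshold without DOS.101 and DOS.75 (adjusted p from 0.0132 to 0.0452). ASB9 (r = -0.750), MATN2 (-0.664) and BORA (-0.637) were the most opposed, of which BORA missed the threshold (limma adjusted p = 0.0706) and MATN2 did so without those 2 tumours (0.210).

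For SOST 136 genes were called (0.897%), 130 with a positive slope (0.857%) and 6 with a negative one (0.0396%). Without DOS.81 and DOS.111 no gene was called by limma, with 1037 genes at an unadjusted p below 0.05, so each SOST call below rests on those 2 tumours for passing. DKK1, another secreted blocker of the LRP co-receptors, was the 1 pathway gene of 81, with a slope of 0.51 ± 0.08 (SE, limma adjusted p = 0.00172, r = 0.769). It ranged from 0 FPKM over a median of 2.95 to 78.3. PHEX, a protease of osteocytes and osteoblasts that acts in phosphate balance, had a slope of 0.63 ± 0.09 (SE, limma adjusted p = 0.00172, r = 0.771) and ranged from 0.0605 FPKM over 3.79 to 124. Without DOS.81 and DOS.111 their slopes were 0.51 and 0.61 with adjusted p = 0.114 for both, and r was 0.705 for DKK1 and 0.678 for PHEX.

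These relations were also described on each side of the gap in SOST between 1.85 and 5.26 FPKM. PHEX had r = 0.794 within the 10 tumours below it and 0.534 within the 19 above. DKK1 had r = 0.045 below the gap and 0.595 above it, so its relation to SOST was seen in the upper tumours and in the step between the 2 sets, where its median went from 0.955 to 5.86 FPKM. For WIF1 the values were 0.756 below and 0.195 above. These are descriptions on sets defined by SOST itself. The cultures did not keep the relations: OSCA.78, with 34.8 FPKM of SOST, had 0.118 of PHEX and 1.46 of DKK1, and the osteoblast culture had 82.4 of DKK1 and 0.0209 of SOST.

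THSD1 (r = 0.775), FILIP1L (0.765) and AFAP1L2 (0.738) completed the 5 named genes most like SOST, and CECR5 (-0.696), MFSD2A (-0.687) and CCDC184 (-0.615) were the most opposed. Among the marker lists, 4 of 6 endothelial genes, 2 of 4 genes of smooth muscle and pericytes and 1 of 4 osteocyte genes (PHEX) were called by limma, with positive slopes on SOST. Vessel markers thus moved with SOST among these tumours, and their part in the SOST relations was not tested.

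**Figure D5:**
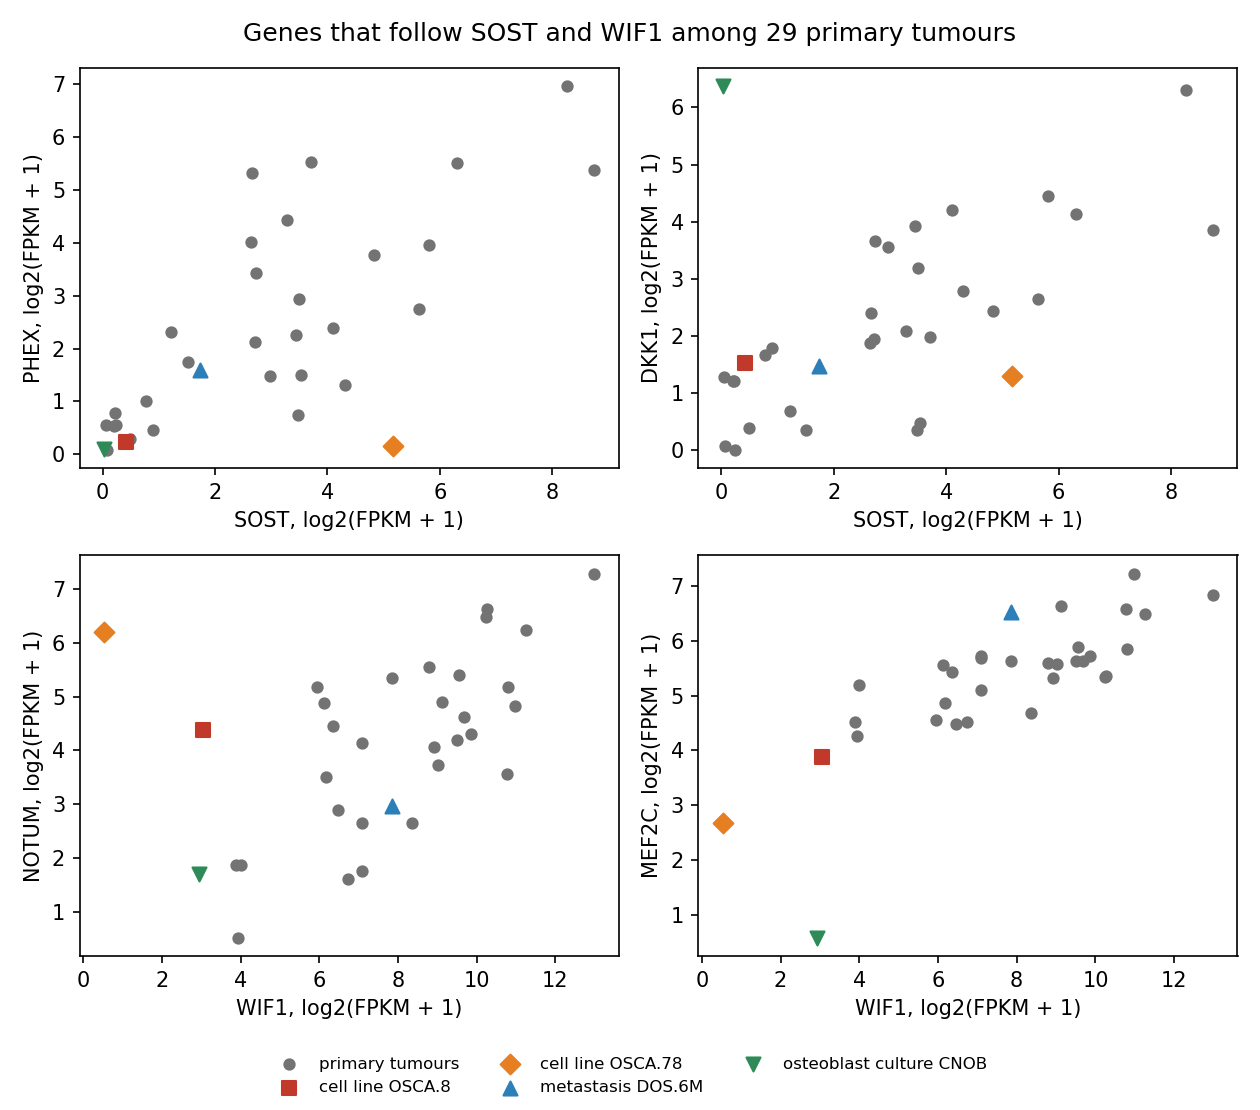
PHEX and DKK1 against SOST, and NOTUM and MEF2C against WIF1, as log2(FPKM + 1), with grey points for the 29 primary tumours and symbols for single libraries. Tumours rise along each panel (r = 0.771, 0.769, 0.729 and 0.757), and OSCA.78 lies far from the tumours for PHEX, NOTUM and MEF2C.

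For SFRP4 24 genes were called (0.158%), 12 with a positive slope (0.0791%) and 12 with a negative one (0.0791%). The number depended on the fit: it was 11 in all without DOS.46.2 or without limma's trend and robust options, 10 without the filter, and 130 without DOS.76 and DOS.28, the tumours farthest from its median. The named genes most like it were the complement regulator CD59 (r = 0.730, slope 0.33 ± 0.06 SE, limma adjusted p = 0.0178), the stress gene GADD45A (r = 0.689, slope 0.44 ± 0.09 SE, limma adjusted p = 0.0295), STARD3NL (0.673), THOC7 (0.671) and the mitochondrial superoxide dismutase SOD2 (0.665). STARD3NL and SOD2 stood at the threshold (limma adjusted p = 0.0497 each, and 0.0505 each without DOS.46.2) and THOC7 missed it (0.0611).

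The 3 most opposed to SFRP4 were IQGAP3 (r = -0.731), the mitotic kinesin KIF18B (-0.713) and the nuclear pore protein NUP205 (-0.710), with limma adjusted p = 0.0193, 0.0220 and 0.0295. Of 8 cell cycle genes, 1 was called by limma, with a negative slope, and 7 had an unadjusted p below 0.05. The median slope of the 8 was -0.20. No WNT pathway gene followed SFRP4 (0 of 81 by limma, 13 at an unadjusted p below 0.05). Nearest in their lists were WNT9B (limma adjusted p = 0.138) and DKK2 (0.166). Without DOS.76 and DOS.28, 3 passed: WNT9B (0.0195), FGFR1 with a negative slope (-0.33, 0.0257) and RSPO2 (0.0496).

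For SHISA2 187 genes were called (1.23%), 175 with a positive slope (1.15%) and 12 with a negative one (0.0791%). Without DOS.110 and DOS.85, its highest tumours, 1 gene was called, P4HA3, a collagen prolyl hydroxylase subunit (r = 0.756, limma adjusted p = 0.0246). In all 29 tumours P4HA3 had r = 0.736 and a slope of 0.68 ± 0.12 (SE, limma adjusted p = 0.00900), and it ranged from 5.11 FPKM over a median of 17.2 to 66.6. Its levels in the lines, 51.5 and 163 FPKM, lay high as those of SHISA2 did, but so did its level in the osteoblast culture (68.9 FPKM), which had little SHISA2. The next named genes were MAP3K7CL (r = 0.735), LGI2 (0.729) and OTOS (0.728), whose tumour medians were 0.269 FPKM or less.

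SP7 (osterix), a transcription factor of osteoblasts, was among the 3 genes most opposed to SHISA2, with r = -0.650 and a slope of -0.68 ± 0.14 (SE, limma adjusted p = 0.0173). It ranged from 7.72 FPKM over a median of 56.9 to 128 in tumours, and was 0.201 and 5.08 FPKM in the lines, where SHISA2 was highest. HOXD11 (r = -0.671) and IPO13 (-0.669) were the others, and neither lay below its tumour range in the lines. HOXD11 stood there at 0.731 and 3.23 FPKM, on either side of its tumour median of 1.86 and inside its range of 0.0312 to 8.30. IPO13 stood at 32.1 and 42.4 FPKM, above its highest tumour (28.5). Without DOS.110 and DOS.85 the adjusted p was 0.285 for SP7 (r = -0.533), 0.101 for HOXD11 and 0.281 for IPO13.

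Of the 81 pathway genes, 2 followed SHISA2: SFRP5, a relative of SFRP4 (slope 0.66 ± 0.16 SE, limma adjusted p = 0.0322, r = 0.606), and the ligand WNT9B (slope 0.25 ± 0.05 SE, limma adjusted p = 0.0176, r = 0.692). Both ended without the 2 highest tumours (0.324 and 0.375), and SFRP5 also at a pseudocount of 0.1 FPKM (0.0598). SFRP5 was listed at 0 in both lines, where SHISA2 was high. No relative of SHISA2 and no FGF receptor followed it (0 of 6 by limma), the nearest being FGFRL1 (limma adjusted p = 0.298). Likewise 0 of 18 receptors were called, the nearest being the co-receptor LRP4 with a slope of -0.59 (limma adjusted p = 0.0879).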

How the data were processed

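Per the labels' protocols, total RNA was made into TruSeq libraries. The submitters' processing notes name FastQC 0.11.2, TopHat2 2.0.13, Cufflinks 2.2.1 and canFam3, with no order, annotation or parameters. The deposited table names no unit, and its values were read as FPKM made by the authors; no source used here says what was masked. Depth per sample is unknown, so no counting interval was computed. The relative FPKM of 1 fragment was estimated from ratios of values below 0.3 FPKM to DOS.46. No RefSeq sequence or coordinate is printed. Of 23988 rows, 9653 carry no symbol and entered only counts over all genes.

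Values were used as log2(FPKM + 1). Lines against tumours, and slopes on each of the 4 genes among tumours, were fitted in limma 3.58.1 (R 4.3.3, trend and robust variants of eBayes, two-sided) and p-values were adjusted by Benjamini and Hochberg's method over every gene past the filter, with a threshold of 0.05, after the fits were tested on simulated data. Correlations used 100000 permutations (Python 3.11.15, numpy 2.4.6). The 4 genes and all lists were chosen with earlier results of these data known. Genes were named by rule: per list and fit the 3 largest called changes or else the smallest adjusted p, of which not all are printed, and per gene the 5 highest and 3 lowest r; 1 gene of the rule is not reported here. Of 104 listed pathway genes 91 were in the table and 81 passed the filter. Alternatives were another pseudocount, no filter, upper quartile scaling, DOS.46.2 left out, plain limma, single lines, a replicate block and 2 tumours left out.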

Additional observations from a re-analysis of the deposited data

How the results depend on the processing

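Of 836 values recomputed under an alternative, 71 of main results and 657 of single genes or pairs kept direction and side of the threshold, or stayed within 1.5 times for counts. In the second set 67 values lost the call, 4 gained it and 12 changed sign. Among the main results 21 moved further and 2 changed sign. The remaining 2, both for WIF1 with SOST, fell below 0.05 by unadjusted permutation p only. Counts of genes called in the lines were 344 to 1998 with a single line, against 2489, and 2 to 11 of the WNT pathway genes, against 15. The split into higher and lower was 1288 to 1201, and turned to 1121 to 1639 at a pseudocount of 0.1 FPKM and 962 to 1388 under upper quartile scaling, which moved the median of all genes to -0.14. The difference of SOST ranged from -2.63 to 2.12 with a single line.

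A replicate block pairing OSCA.8 with DOS.8 and OSCA.78 with DOS.78 called 0 genes and 0 pathway genes (limma, 3205 and 30 at an unadjusted p below 0.05), with SOST at 0.067 (adjusted p = 0.988). No line call printed for a single gene passed under it (LGR5 had adjusted p = 0.123 and DKK3 0.111). It has 4 libraries, which the labels tie by title number alone. Over genes, the difference between the lines correlated at 0.269 with that between the tumours. Deviations from the tumour mean correlated at 0.297 between OSCA.8 and DOS.8 (0 of 28 other tumours higher) and at 0.239 between OSCA.78 and DOS.78 (1 of 28 higher).

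When the 2 tumours most distant from the median of the gene fitted on were left out, called genes and pathway genes numbered 19 and 1 for WIF1 (43 and 2 with all tumours), 0 and 0 for SOST (136 and 1), 130 and 3 for SFRP4 (24 and 0) and 1 and 0 for SHISA2 (187 and 2). At a pseudocount of 0.1 FPKM they were 55 genes for SOST, and 117 genes and 1 pathway gene for SHISA2. For SFRP4 they were 10 without the filter and 11 without DOS.46.2 or with plain limma. The cause was not tested.

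Of the 6 pairs, 2 had an unadjusted permutation p below 0.05 at a pseudocount of 0.1 FPKM and under upper quartile scaling, against 1: WIF1 and SOST then reached r = 0.437 and 0.367 (permutation p = 0.0174 and 0.0497). Adjusted over the 6 pairs, neither passed (permutation adjusted p = 0.0523 and 0.149). Values near 0 changed sign. SOST and SHISA2 had r = -0.038 at a pseudocount of 0.1 FPKM, with slopes of -0.017 and -0.083, and -0.589 for SOST on SHISA2 without the 2 tumours; SOST and SFRP4 had r = 0.043 without the 2 tumours farthest in SOST, with a slope of 0.051. SHISA2 and the osteocyte score had r = 0.00012 at the smaller pseudocount. Leaving out the 2 tumours farthest in each gene was added for the scores after seeing the data: 0 of 44 pairs passed by r, against 2 (SFRP4 and fibroblast passed by rho = 0.635, permutation adjusted p = 0.0282; 11 at an unadjusted p below 0.05 with all tumours), and r changed sign for WIF1 and osteoclast (0.056), SOST and WNT target (-0.031), SOST and fibroblast (0.097), SFRP4 and osteoclast (-0.169) and SFRP4 and T cell scores (0.023). Without read counts, what depth limits could not be computed.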
